A study of Mus musculus with 12 samples.

Results

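Of the 10 genes of the dorsal neural tube and roof plate examined here, only Msx3 passed the test in any comparison. At its brightest probe it was 1.50-fold higher in embryo pools from diabetic pregnancies than in control pools. Its 2 other probes did not pass, and the call was lost when all 12 arrays shared 1 estimate of spread. The genes were Msx1, Msx2, Msx3, Lmx1a, Pax7, Olig3, Atoh1, Gdf7, Wnt1 and Bmp7, and they were measured on every annotated array probe with a detection p-value under 0.05 on at least 4 of 12 arrays. The detection p-value is the chance that a signal as bright as the probe's comes from the array's negative controls. The annotation used here gave 12 probes to 6 of the 10 genes and listed none for Pax7, Olig3, Gdf7 and Wnt1, which are not analysed here. Of the 12 probes, 7 passed the detection rule, out of 13876 that passed among the 32766 probes of the array. These 7 belonged to 4 genes, with 3 probes for Msx3, 2 for Msx1 and 1 each for Lmx1a and Bmp7. The probes were chosen by their detection p-values, and the gene set was drawn up with the result for Msx3 already known, so that result is not independent support for the choice.

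Whole mouse embryos of the NOD strain, which develops diabetes spontaneously, were measured at embryonic day 10.5. The NTD embryos were 4 single embryos with a neural tube defect, taken from diabetic pregnancies and hybridised one to an array. The diabetic pools were 4 samples, each combining RNA of 4 embryos that came from separate diabetic pregnancies. The control pools were 4 samples combined in the same way from normal pregnancies. The labels' protocols set the limit for diabetes at 250 mg/dL of blood glucose and record 5 units of gonadotropin for diabetic dams ahead of mating, and they are silent on gonadotropin in control dams. The defect therefore cannot be told apart from measuring an embryo alone, and maternal diabetes cannot be told apart from gonadotropin if control dams had none. The kind of neural tube defect is not given in the labels. Nothing in the labels says whether the diabetic pools included embryos with a defect.

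The neural tube is patterned from its dorsal midline by the roof plate, which secretes BMP and Wnt proteins. Cells near it respond with transcription factors of the Msx, Pax and basic helix-loop-helix families, in bands that give rise to neural crest and to dorsal interneurons. In the mouse, Msx3 is restricted to the dorsal neural tube, whereas Msx1 and Msx2 are also strong in limb buds, face and other mesenchyme, and Bmp7 is made in many epithelia. In whole embryos, fewer cells of a type and less RNA per cell cannot be told apart.

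The promoter sequences of Msx3 and Msx1 are shown because these were the genes whose brightest probes separated diabetic from control pools, in opposite directions. RefSeq promoter windows of build GRCm38.p6, covering 250 bases before and 50 bases after the start of the gene, were found for 9 of the 10 genes, all but Bmp7. The Msx3 window lies at chr7:140049039-140049338 on the minus strand and the Msx1 window at chr5:37824536-37824835 on the minus strand, both written 5′ to 3′ along the gene. Capitals mark every match, on either strand, to the motifs searched.
Msx3: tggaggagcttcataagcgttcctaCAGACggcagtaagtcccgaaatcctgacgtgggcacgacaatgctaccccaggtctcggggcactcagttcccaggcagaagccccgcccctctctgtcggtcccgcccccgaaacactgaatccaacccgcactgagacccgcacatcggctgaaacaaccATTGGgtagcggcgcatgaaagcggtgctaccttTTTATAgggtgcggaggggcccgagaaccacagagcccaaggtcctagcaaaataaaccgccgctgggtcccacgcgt
Msx1: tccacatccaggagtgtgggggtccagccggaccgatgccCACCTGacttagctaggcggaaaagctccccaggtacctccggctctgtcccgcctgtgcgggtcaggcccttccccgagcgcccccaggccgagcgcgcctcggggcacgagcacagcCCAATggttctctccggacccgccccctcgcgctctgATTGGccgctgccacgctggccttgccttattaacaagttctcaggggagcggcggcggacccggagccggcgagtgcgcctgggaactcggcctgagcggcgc

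The motifs searched were GGCGCC and GTCTG, both known to be bound by SMAD proteins of the BMP and related pathways, the E-box CANNTG, the homeodomain site TAATTA, the TATA box TATAAA and the CCAAT box CCAAT. The Msx3 window held the TATA box on the opposite strand at bases -28 to -23, 1 CCAAT box on the opposite strand at -62 to -58 and 1 GTCTG on the opposite strand at -225 to -221. The Msx1 window held no TATA box, 1 E-box at -210 to -205 and CCAAT boxes at -91 to -87 and, on the opposite strand, -54 to -50. Among all 32851 promoter windows of the same table, 13.6% held TATAAA, 37.4% CCAAT, 49.6% GTCTG, 72.3% CANNTG, 11.9% GGCGCC and 5.29% TAATTA. Neither window held GGCGCC or TAATTA. GC content was 60% in the Msx3 window and 70% in the Msx1 window. These matches describe the letters alone.

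Between 12546 probes (NTD embryo 1) and 13736 probes (control pool 4) were detected per array. The level given below is the log2 of the background-corrected, quantile-normalized intensity, and SE is the standard error from limma. The standard error over the beads of a probe was 1.51 to 5.46% of the signal for the 7 probes. Kdm5d, a Y-linked gene that marks male tissue, had levels of 9.18, 9.05, 4.59 and 4.48 in NTD embryos 1 to 4, 7.97, 7.23, 8.17 and 8.97 in diabetic pools 1 to 4 and 8.19, 8.28, 4.60 and 4.42 in control pools 1 to 4. Control pools 3 and 4 were thus near background for it, and the results for the 7 probes, and for each gene named below as having risen or fallen, were also computed without them. NTD embryos 3 and 4 were near background too, so this step makes NTD embryos and control pools less alike in male signal.

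Msx3 encodes a homeodomain transcription factor of the dorsal neural tube. Its first probe, the brightest, had levels of 8.19, 7.68, 8.30 and 8.85 in NTD embryos 1 to 4. The diabetic pools had 8.51, 8.55, 8.50 and 8.32, and the control pools 7.87, 7.89, 7.94 and 7.85. The 4 diabetic pools lay above all 4 control pools with a gap wider than the range of either group, while the NTD embryos extended from below the control pools to above the diabetic pools. In the unscaled intensities as deposited, the diabetic pools averaged 385 ± 19 and the control pools 291 ± 4.2 (SD, n = 4 each).

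Between diabetic and control pools the first Msx3 probe rose by 0.58 ± 0.07 (SE, n = 4 per group, 95% interval 0.42 to 0.74, limma adjusted p = 0.00163), a 1.50-fold difference. It stood at rank 43 of 13876 probes by p. It was the only call among the 7 probes, against 222 calls among all probes, or 1.60%, with 0.504% of probes called higher. The groups also stood apart, with the diabetic pools higher, for 4.13% of all probes. The call held without control pools 3 and 4 (0.59, limma adjusted p = 0.0420) and was lost when all 12 arrays shared 1 estimate of spread (limma adjusted p = 0.295).

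The 2 other Msx3 probes had smaller normalized differences, also above 0, that did not pass. The second probe, which the array design assigns to a different transcript record from the other 2, had 6.99, 6.80, 7.08 and 7.56 in NTD embryos 1 to 4, 7.17, 7.21, 7.28 and 7.14 in diabetic pools 1 to 4, and 6.93 to 7.15 in the control pools. Diabetic and control pools overlapped only through diabetic pool 4 and control pool 2, and their difference was 0.16 ± 0.07 (SE, limma adjusted p = 0.391, unadjusted p = 0.0525). In unscaled intensity this probe averaged 180 ± 1.7 in diabetic pools and 178 ± 7.3 in control pools (SD, n = 4 each), a difference smaller than the spread between control pools. The third probe had 6.60, 6.27, 6.87 and 7.46 in NTD embryos, 6.92, 7.22, 6.96 and 6.69 in diabetic pools and 6.48, 6.57, 6.43 and 6.80 in control pools. Here control pool 4 exceeded diabetic pool 4, and the difference was 0.38 ± 0.12 (SE, limma adjusted p = 0.161, unadjusted p = 0.00722). The unscaled means were 157 ± 18 in diabetic pools and 139 ± 15 in control pools.

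The first probe also parted from the second within each sample. The log2 difference of first minus second probe was 0.88 to 1.29 in NTD embryos, 1.18 to 1.34 in diabetic pools and 0.75 to 0.94 in control pools. Diabetic and control pools did not overlap in this within-array difference, so the probes did not record the same size of change. Across the 12 arrays, however, the 3 probes ranked the samples much alike, with Pearson correlations of 0.83 to 0.90 and Spearman correlations of 0.76 to 0.85 (12 arrays that share their groups). The NTD embryos stood in the same order on all 3 probes, and diabetic pool 4 was the lowest diabetic pool on each. The control pools did not keep their order. Control pool 4 was the lowest of them on the first and second probes and the highest on the third.

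NTD embryos varied more in Msx3 than pools did. The SD of the first probe was 0.48 among NTD embryos, 0.10 among diabetic pools and 0.04 among control pools, and NTD embryo 4 was the highest and NTD embryo 2 the lowest of all 12 samples on each of the 3 probes. Over all probes the SD was largest among NTD embryos for 57.1% of them, and the median SD was 0.17 in NTD embryos, 0.13 in diabetic pools and 0.11 in control pools. A pool averages 4 embryos, and single embryos cannot be told apart from the defect here. The NTD embryos against control pools gave 0.37 ± 0.19 for the first probe (SE, limma adjusted p = 0.574), 0.06 ± 0.14 for the second (limma adjusted p = 0.939) and 0.23 ± 0.21 for the third (limma adjusted p = 0.793). These values rested on single embryos. Without NTD embryo 4 the first probe gave 0.17 and the third 0.012, and without NTD embryo 2 they gave 0.56 and 0.41.

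**Figure D1:**
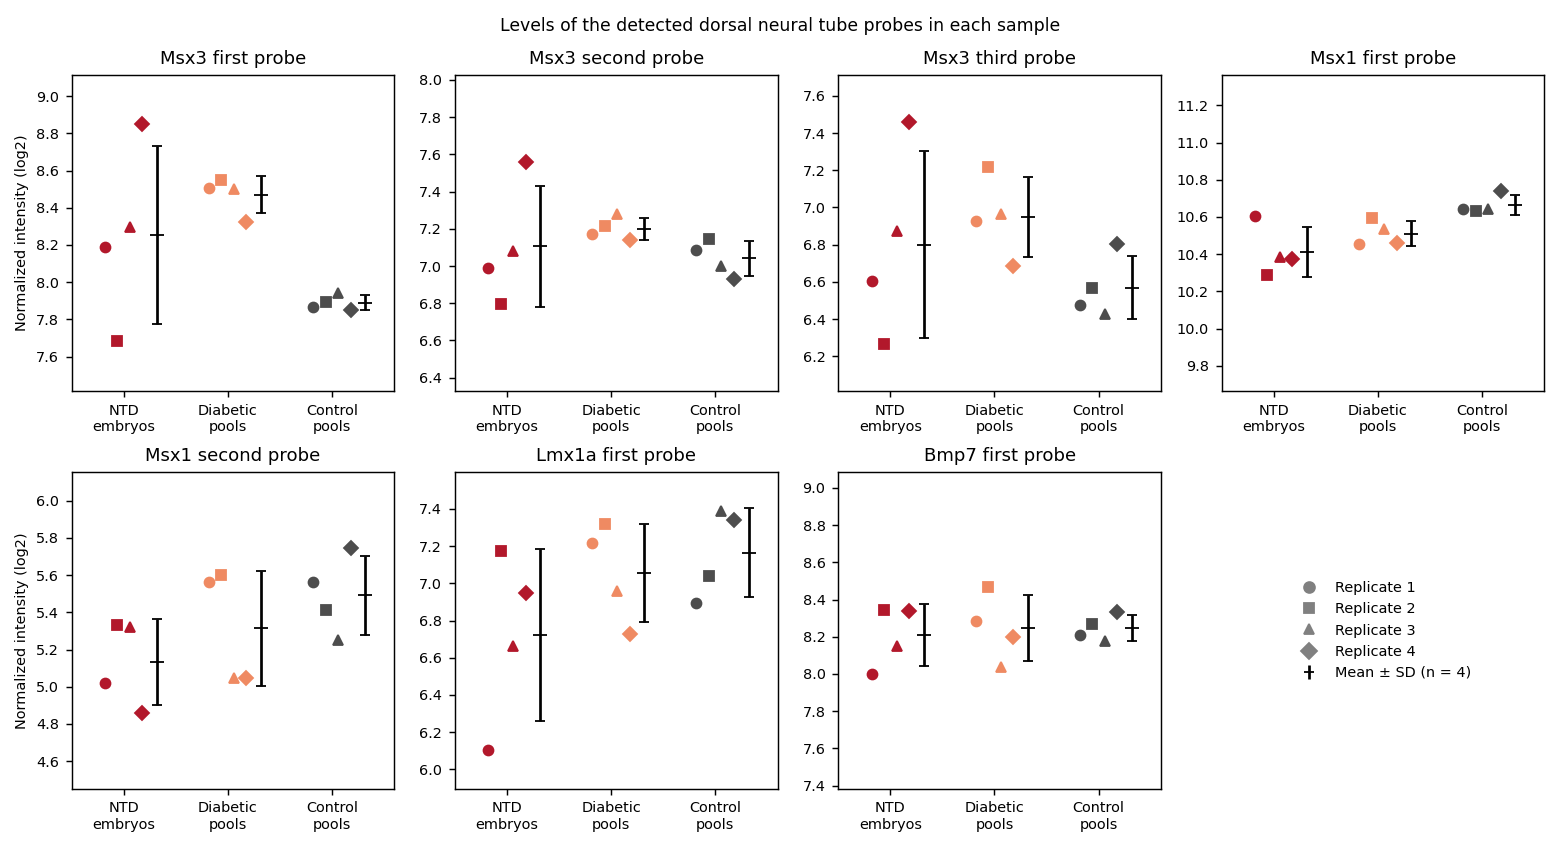
Normalized intensity (log2) of the 7 detected probes in each of the 12 samples, with each panel spanning the same range. Symbols give the replicate number, and the bars give mean ± SD of 4 samples. The first Msx3 probe separates the diabetic pools (8.32 to 8.55) from the control pools (7.85 to 7.94), and the NTD embryos spread from 7.68 to 8.85.

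Msx1 encodes a homeodomain transcriptional repressor that BMP signals switch on. At its first probe the control pools were the highest group. It had 10.60, 10.29, 10.38 and 10.37 in NTD embryos 1 to 4, 10.45, 10.60, 10.53 and 10.46 in diabetic pools 1 to 4, and 10.64, 10.63, 10.64 and 10.74 in control pools 1 to 4. All 8 samples from diabetic pregnancies lay below all 4 control pools. Without scaling between arrays, the deposited intensities averaged 1328 ± 87 in NTD embryos, 1462 ± 63 in diabetic pools and 1764 ± 65 in control pools (SD, n = 4 each). Unscaled means of the detected Bmp7 probe stood in the same order, at 314 ± 51, 338 ± 44 and 362 ± 24. Its normalized groups lay over one another. The unscaled Msx1 means may therefore include differences in brightness between arrays, which was not tested.

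The difference in Msx1 was small and did not pass. It was -0.25 ± 0.09 for NTD embryos against control pools (SE, n = 4 per group, 95% interval -0.44 to -0.06, limma adjusted p = 0.359) and -0.15 ± 0.07 for diabetic against control pools (95% interval -0.31 to -0.0031, limma adjusted p = 0.370). Both comparisons share the control pools. Groups did not overlap, with the first group lower, for 2.67% of all probes between NTD embryos and control pools and for 4.53% between diabetic and control pools, and 1 of the 7 probes was so placed in each case. Control pool 4 stood above the other 3, and without it the difference was -0.23 for NTD embryos and -0.13 for diabetic pools.

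The second Msx1 probe was dim and was the probe just inside the detection rule, with 8 of 12 arrays detected. It was detected in 2 of 4 NTD embryos, 2 of 4 diabetic pools and 4 of 4 control pools. Its levels were 5.02, 5.33, 5.32 and 4.86 in NTD embryos, 5.56, 5.60, 5.05 and 5.05 in diabetic pools and 5.56, 5.41, 5.25 and 5.75 in control pools, and the groups overlapped. The difference from control pools was -0.36 ± 0.14 for NTD embryos (SE, limma adjusted p = 0.410) and -0.18 ± 0.15 for diabetic pools (SE, limma adjusted p = 0.692). The sizes are inexact because part of each of the first 2 groups was at background.

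**Figure D2:**
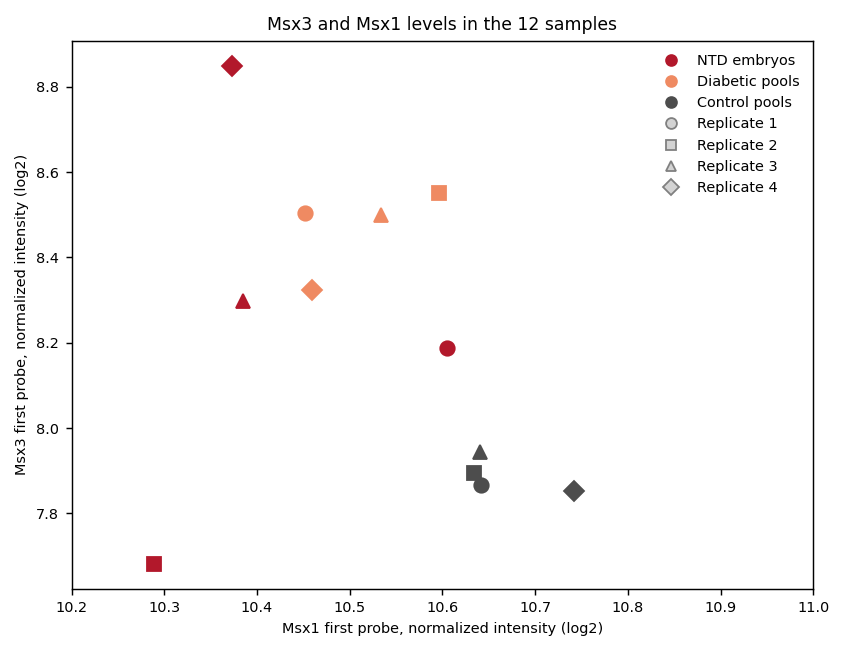
Level of the first Msx3 probe against that of the first Msx1 probe (both log2 normalized intensity) in the 12 samples, coloured by group. The control pools sit together at low Msx3 and high Msx1 (Msx1 10.63 to 10.74, Msx3 7.85 to 7.94), the diabetic pools lie above and to the left, and the NTD embryos are scattered, all to the left of the control pools.

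Set against each other within each array, the log2 difference of the first Msx3 probe minus the first Msx1 probe was -2.61 to -1.52 in NTD embryos, -2.14 to -1.95 in diabetic pools and -2.89 to -2.70 in control pools. All 8 samples from diabetic pregnancies lay above the control pools on this scale. The difference holds the opposite shifts of both genes and is given as a description, since the pair was chosen after the values were seen. The levels of different probes carry no common unit, so only its change between samples can be read. Over the 12 arrays the Msx3 and Msx1 first probes had a Pearson correlation of -0.32 and a Spearman correlation of -0.41.

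Lmx1a encodes a LIM homeodomain factor that mouse embryos need to form the roof plate. Its detected probe had 6.11, 7.17, 6.66 and 6.95 in NTD embryos 1 to 4, 7.21, 7.32, 6.96 and 6.73 in diabetic pools 1 to 4 and 6.89, 7.04, 7.39 and 7.34 in control pools 1 to 4. The groups overlapped, and NTD embryo 1 was the lowest of the 12 samples, with NTD embryo 3 next. The array of NTD embryo 1 also had the fewest detected probes of the 12. The difference was -0.44 ± 0.21 for NTD embryos against control pools (SE, 95% interval -0.90 to 0.01, limma adjusted p = 0.519), and -0.11 ± 0.14 for diabetic against control pools (95% interval -0.42 to 0.20, limma adjusted p = 0.825). Without control pools 3 and 4, which held the highest values and little male tissue, the difference was -0.24 for NTD embryos and 0.09 for diabetic pools. NTD embryos 3 and 4 also held little male tissue, so the step does not balance the NTD comparison. Without NTD embryo 1 the NTD difference was also -0.24, and without diabetic pool 4 the diabetic difference was -1.91e-04. The 2 other Lmx1a probes were detected on 0 of 12 arrays, at intensities of 40.7 to 66.6, so the gene rests on 1 probe.

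Bmp7 encodes a BMP ligand of the roof plate and the overlying ectoderm. Its detected probe had 8.00, 8.34, 8.15 and 8.34 in NTD embryos 1 to 4, 8.28, 8.47, 8.04 and 8.20 in diabetic pools 1 to 4 and 8.21, 8.27, 8.18 and 8.33 in control pools 1 to 4. The 3 groups lay over one another. NTD embryos differed from control pools by -0.04 ± 0.10 (SE, 95% interval -0.25 to 0.17, limma adjusted p = 0.945), and diabetic from control pools by an interval of -0.20 to 0.20 around a value near 0 (limma adjusted p = 1.00). The other Bmp7 probe was the one just outside the rule, detected on 1 of 12 arrays at intensities of 52.0 to 71.2.

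Msx2, a close relative of Msx1, and Atoh1, the proneural factor of the most dorsal interneuron progenitors, were each represented by 1 probe. Neither was detected on any array. Intensities were 42.2 to 53.3 for Msx2, with detection p-values of 0.252 to 0.819, and 39.1 to 48.4 for Atoh1, with detection p-values of 0.527 to 0.956. The array medians were 55.3 to 62.2, so these probes read background and say nothing about either gene's level.

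Between NTD embryos and diabetic pools, which share the maternal condition, 0 of the 7 probes passed in limma, and 0 of the 7 had an unadjusted p under 0.05. Over all probes 0 passed (0%), and 404 had an unadjusted p under 0.05 (2.91%). All 7 values were below 0, from -0.33 ± 0.21 for Lmx1a (SE, 95% interval -0.80 to 0.13) to -0.04 ± 0.12 for Bmp7, each with a limma adjusted p of 0.997. Without NTD embryo 1 the Lmx1a value was -0.13, and without NTD embryo 2 that of the first Msx3 probe was -0.025, against -0.22 with it. Probes of 1 gene are not independent, and 3 of the 7 are Msx3 probes. Over all probes the median was near 0 in every comparison, between -0.0037 and 0.0058.

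**Figure D3:**
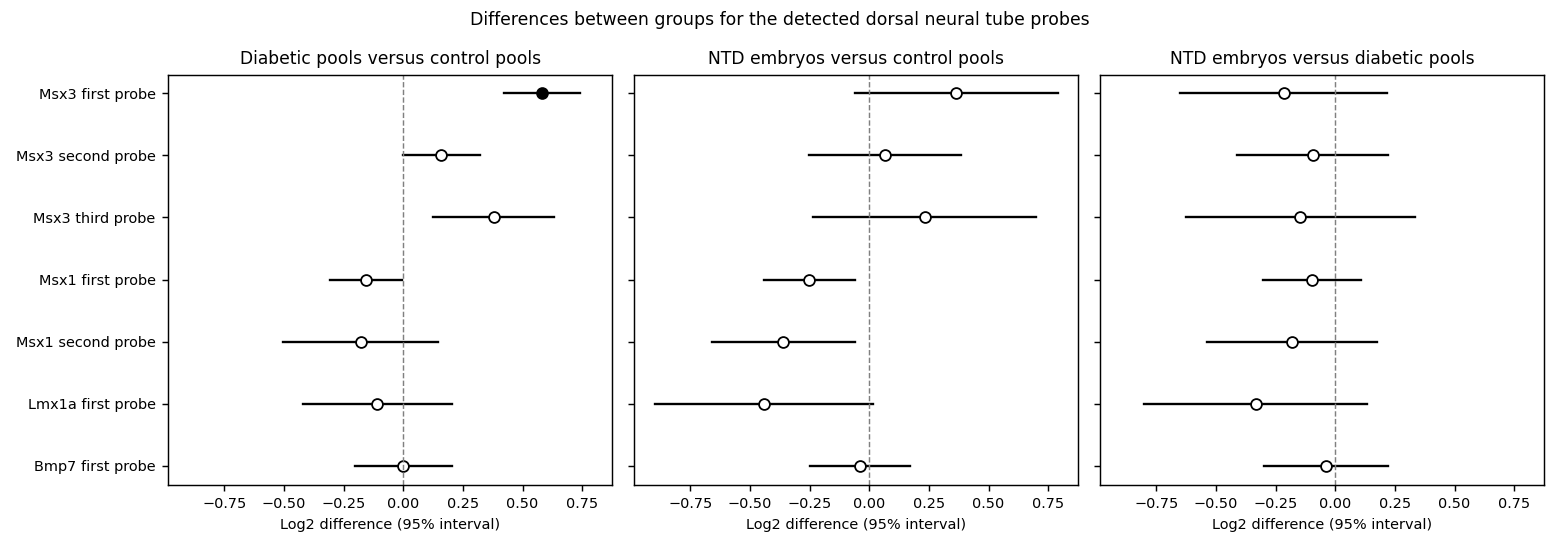
Log2 difference with its 95% interval for the 7 detected probes in the 3 comparisons, from limma fits of 4 against 4 samples. The filled point has a limma adjusted p under 0.05. Only the first Msx3 probe between diabetic and control pools (0.58) is filled.

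Over the 7 probes, 3 values were above 0 and 4 below 0 between diabetic and control pools, and likewise between NTD embryos and control pools. Those above 0 were in both cases the Msx3 probes. The probes with an unadjusted p under 0.05 numbered 3 of 7 between diabetic and control pools, against 13.0% of all probes. They belonged to Msx3 and Msx1 only. Between NTD embryos and control pools such probes numbered 2 of 7, against 9.94%, and belonged to Msx1 only. Probes of 1 gene are not independent, so these counts do not show an excess of genes over the shares of all probes. In the second comparison 0 of the 7 passed after adjustment in limma, against 5 of all probes (0.0360%).

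The 5 genes whose levels followed the first Msx3 probe most closely over the 12 arrays, among 7340 other genes with 1 probe each, were Mapk11 (Pearson correlation 0.93), which encodes a p38 kinase, Nkx6-1 (0.92), a homeobox gene of the ventral neural tube, Hoxb4 (0.91), which patterns the hindbrain and neck, Rbfox3 (0.91), a neuronal splicing factor, and Mapk8ip1 (0.90), a scaffold protein of JNK kinases. Of these, Hoxb4 and Rbfox3 rose between diabetic and control pools (0.36, limma adjusted p = 0.0278, and 0.57, limma adjusted p = 0.0282), and the other 3 did not pass. The 5 were chosen for likeness to a probe that separates these pools, so such rises follow from the choice and are not separate evidence. Over all probes 0.504% were called higher in this comparison. Without control pools 3 and 4 neither call held (limma adjusted p = 0.291 for Hoxb4 and 0.192 for Rbfox3). All 5 were above the control mean in NTD embryo 4, by 0.43 for Mapk11 and 1.26 for Nkx6-1. This too follows from the choice, since NTD embryo 4 was the highest sample on the first Msx3 probe. The 12 arrays share the 3 groups, so these likenesses are a description.

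The genes of the BMP pathway around the 10 genes showed no call. Of 11 BMP ligands and receptors, 9 were measured, and 0 rose, 0 fell and 9 did not pass in limma in each of the 3 comparisons. Over all probes 1.60% passed between diabetic and control pools and 0.0360% between NTD embryos and control pools. Between NTD embryos and diabetic pools 0% passed. A list of 9 with 0 calls is near those shares, which apply to the lists below as well. At an unadjusted p under 0.05, 1 of 9 was lower in NTD embryos than in control pools and 2 of 9 were lower in diabetic pools, against 9.94% and 13.0% of all probes in either direction for those comparisons. The receptor gene Bmpr1b came nearest, at 7.91 to 8.26 in NTD embryos, 7.89 to 8.19 in diabetic pools and 8.32 to 8.40 in control pools. Its difference from control pools was -0.31 ± 0.09 for NTD embryos (SE, limma adjusted p = 0.280) and -0.30 ± 0.08 for diabetic pools (SE, limma adjusted p = 0.0938). All 8 samples from diabetic pregnancies lay below the control pools. Groups stood apart in this direction for 2.67% of all probes between NTD embryos and control pools and 4.53% between diabetic and control pools. Bmpr1b is named for its small p within the list. The list median was -0.05 between NTD embryos and control pools and -0.14 between diabetic and control pools.

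Of 15 BMP signal transducers, targets and inhibitors, 9 were measured and 9 did not pass in either comparison with the control pools, with medians of 0.04 for NTD embryos and 0.09 for diabetic pools. At an unadjusted p under 0.05, 2 of 9 were higher and 1 lower in diabetic pools, against 13.0% of all probes in either direction. For NTD embryos 1 was higher and 1 lower, against 9.94%. Id4, an inhibitor of basic helix-loop-helix factors that BMP signals induce, had 9.19, 8.75, 8.40 and 8.88 in NTD embryos 1 to 4, 8.90 to 9.40 in diabetic pools and 9.46, 9.47, 9.56 and 9.62 in control pools 1 to 4. Again all 8 lay below the control pools, with differences of -0.72 ± 0.14 for NTD embryos (SE, limma adjusted p = 0.159) and -0.40 ± 0.11 for diabetic pools (SE, limma adjusted p = 0.101). The shares of all probes so placed were 2.67% for NTD embryos and 4.53% for diabetic pools. Fst, which encodes the secreted inhibitor follistatin, had 6.38 to 7.01 in NTD embryos, 6.48 to 6.97 in diabetic pools and 6.16 to 6.40 in control pools. Only the diabetic pools were clear of the control pools, and the difference was 0.44 ± 0.13 for NTD embryos (SE, limma adjusted p = 0.261) and 0.47 ± 0.11 for diabetic pools (SE, limma adjusted p = 0.0587). Diabetic pools stood above control pools for 4.13% of all probes. Grem1, a BMP antagonist gene, had 0.25 ± 0.08 between diabetic and control pools (limma adjusted p = 0.177), and Id1, a direct BMP target, 0.16 ± 0.07 between NTD embryos and control pools (limma adjusted p = 0.523).

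Of 30 other dorsal neural tube genes, 15 had an annotated probe and 8 were measured. Between diabetic and control pools 0 rose, 1 fell and 7 did not pass, against 1.60% of all probes called. The gene that fell was Neurog2, a proneural factor of sensory and spinal progenitors, with 7.38, 7.30, 7.31 and 7.11 in diabetic pools 1 to 4 and 7.73, 7.58, 7.82 and 7.73 in control pools 1 to 4 (-0.44 ± 0.08, SE, limma adjusted p = 0.0228). The call was lost without control pools 3 and 4 (-0.38, limma adjusted p = 0.272). In NTD embryos it had 7.62, 7.03, 6.82 and 7.89, overlapping the control pools. Lhx1, a factor of several interneuron classes and other tissues, had -0.62 ± 0.28 between NTD embryos and control pools (limma adjusted p = 0.503), and Lhx2, a factor of the most dorsal interneurons and of the forebrain, -0.43 ± 0.17 (limma adjusted p = 0.426). Their list median was -0.20 for NTD embryos and -0.05 for diabetic pools against control pools.

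Of 12 genes of the ventral neural tube, 5 were measured, and 0 passed in limma in any comparison, with 1 of 5 at an unadjusted p under 0.05 between diabetic and control pools, where 13.0% of all probes were. Nkx6-1 had 7.31, 6.83, 7.36 and 8.50 in NTD embryos 1 to 4, 7.81, 7.83, 7.72 and 7.40 in diabetic pools 1 to 4 and 7.07, 7.20, 7.42 and 7.30 in control pools 1 to 4. Diabetic and control pools overlapped only through diabetic pool 4 and control pool 3 (0.45 ± 0.11, SE, limma adjusted p = 0.0721). As for Msx3, NTD embryo 4 was the highest and NTD embryo 2 the lowest of the 12 samples. Nkx6-1 is among the genes picked above for likeness to Msx3, so this is not a separate observation. The list medians were 0.14 for NTD embryos and 0.04 for diabetic pools against control pools.

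**Figure D4:**
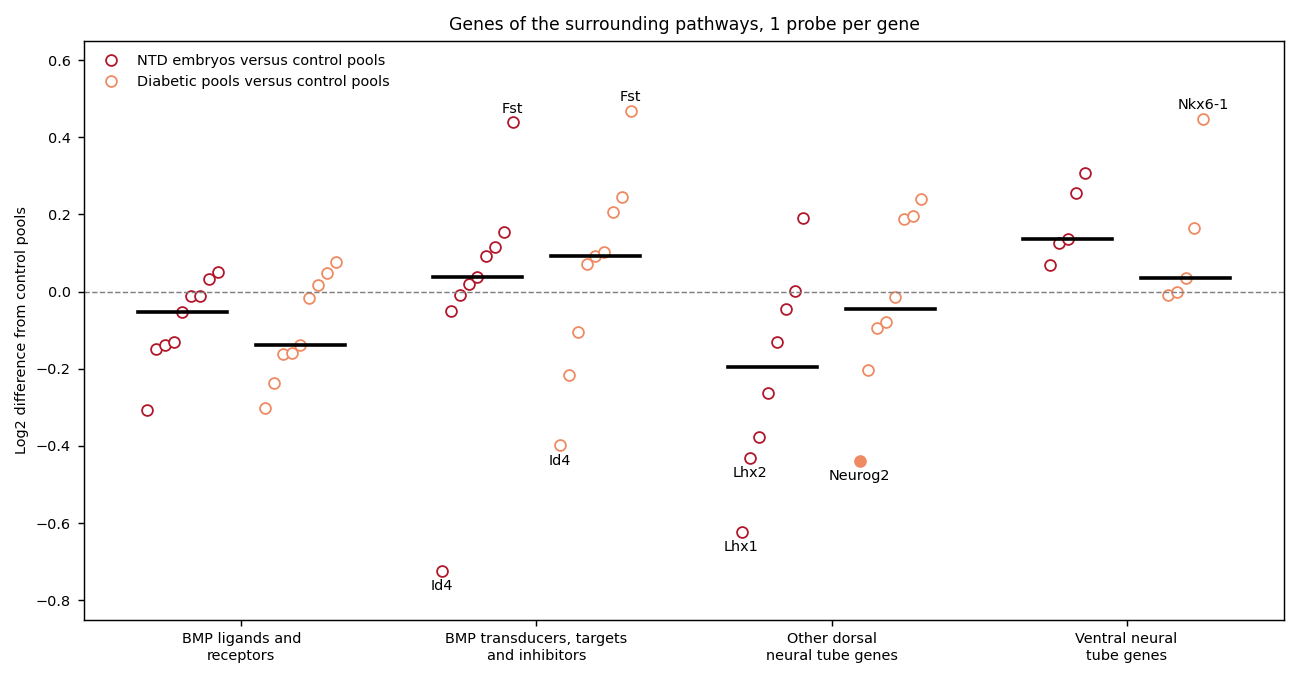
Log2 difference from control pools for the measured genes of 4 lists, 1 probe per gene, in NTD embryos and diabetic pools. Black lines are list medians and the filled point has a limma adjusted p under 0.05. Neurog2 (-0.44, diabetic pools) is the only filled point, and Id4 lies lowest in NTD embryos (-0.72).

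Markers of other tissues that express these genes were also examined. Of 7 neural progenitor markers 3 were measured, and their summed linear level was 1135 to 1538 in NTD embryos, 1234 to 1452 in diabetic pools and 1294 to 1396 in control pools. For 2 of 8 markers of limb and branchial mesenchyme, where Msx1 is strong, the sum was 588 to 625 in NTD embryos, 598 to 693 in diabetic pools and 606 to 654 in control pools. For 4 of 7 markers of surface ectoderm, where Bmp7 is made, it was 1982 to 2696 in NTD embryos, 1903 to 2418 in diabetic pools and 2049 to 2193 in control pools. The ranges overlapped in each of these lists. For 2 of 7 neural crest markers the sum was 1449 to 1789 in NTD embryos, 1727 to 1986 in diabetic pools and 1595 to 1799 in control pools. In these 4 lists 0 markers passed in limma in either comparison with the control pools, and 1 neural progenitor marker had an unadjusted p under 0.05, between diabetic and control pools. The sums for 4 of 7 neuronal markers were 1787 to 2463 in NTD embryos, 1999 to 2331 in diabetic pools and 2317 to 2530 in control pools, with 0 of 4 passing, and Dcx, a gene of migrating neurons, at -0.49 ± 0.19 in NTD embryos (limma adjusted p = 0.413). Of 6 somite and muscle markers 3 were measured, and Meox1 rose in diabetic pools (0.37 ± 0.08, limma adjusted p = 0.0418, and 0.354 without control pools 3 and 4), with list sums of 1145 to 1519 in NTD embryos, 1308 to 1512 in diabetic pools and 1142 to 1206 in control pools. Over all probes 0.504% were called higher between diabetic and control pools. The other 2 did not pass and went different ways. Against control pools, Meox2 was at 0.13 in diabetic pools and 0.08 in NTD embryos, and Myog at -0.07 and -0.32. At an unadjusted p under 0.05, 1 of 3 was higher in diabetic pools, against 13.0% of all probes in either direction. For NTD embryos 1 was higher and 1 lower, against 9.94%. A linear sum follows its brightest markers, so these sums do not measure the amount of a tissue. The neural crest sum was nearly all Ets1, with mean levels in diabetic pools of 10.80 for Ets1 and 5.18 for Tfap2a. Isl1 was the brightest neuronal marker and Nes the brightest neural progenitor marker in each group. The part of these tissues in the values of Msx1, Msx3 and Lmx1a was not tested. Defining markers such as Sox10 for neural crest and Sox2 for neural progenitors are not analysed here, and Foxd3, Erbb3, Prrx1, Dlx5, Krt5, Nhlh1 and Myf5 were annotated but below the detection rule.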

How the data were processed

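Total RNA of whole embryos was labelled with biotin, 200 ng per sample, and hybridised to Illumina mouse bead arrays, per the labels' protocols. The authors deposited an average signal intensity per probe with its detection p-value, standard error and bead number, per the file headers in a table they call non-normalized. GenomeStudio is named in the submitters' processing notes. A second table of linear intensities, deposited with values down to -18.6 and a normalization not given in the sources used here, served as an alternative.

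With limma 3.58.1 in R 4.3.3, neqc estimated background through the detection values, and after an offset of 16 and quantile normalization gave log2 levels. The authors' detection p-values under 0.05 on at least 4 of 12 arrays kept 13876 of 32766 probes. Symbols came from the platform annotation (23353 probes listed, 13 with several genes and not named), updated through Entrez identifiers for 23267. Each comparison was a limma fit of 8 arrays with no covariate, tested on both sides and adjusted by Benjamini-Hochberg across all 13876 probes, with a threshold of 0.05. Lists used the brightest probe per gene. All 10 genes were named; from lists, called genes and up to 3 with the smallest p; and the 5 genes most correlated with Msx3. Genes and lists were chosen with earlier results of these data known. Scripts were tested on simulated data. The labels do not say whether pools of a group shared a pregnancy, so p-values measure only the spread between these samples. Alternatives covered background, scaling, filter, probe choice, weights, samples and replicate numbers. The number of arrays limits precision.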

Additional observations from a re-analysis of the deposited data

Results flagged for a closer look

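The first Msx1 probe stood apart in control pool 4, at 10.74 against 10.63 to 10.64 in the other 3 control pools. Its gap to the nearest sample was 0.927 of the group's range, above Dixon's critical value for 4 samples. Of 21 sets of 4 samples examined for the 7 probes this was the only one to stand out, and chance alone marks about 1 in 20.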

How the results depend on the processing

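For the 7 probes in 3 comparisons, 383 values were recomputed, and 363 kept their direction and their side of the threshold, 19 changed sign and 1 lost its call. The lost call was the first Msx3 probe between diabetic and control pools when 1 fit took all 12 arrays (limma adjusted p = 0.295), where the number of called probes among the 7 was 0 in place of 1. Over the other 18 alternatives that probe stayed called, at 0.52 to 0.63 with an adjusted p of 3.32e-04 to 0.0420; leaving out 1 sample gave 0.55 to 0.63. With 0 of the 7 called, the comparisons with NTD embryos gave 0 under every alternative run.

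The 19 changes of sign all concerned values that did not pass. The Bmp7 probe between diabetic and control pools was 5.66e-04 without background correction, 5.57e-04 with an offset of 50, 0.010 with median scaling, 0.0034 from the authors' value table, 0.0082 without control pools 3 and 4, and from -0.074 to 0.069 without 1 sample. Between NTD embryos and diabetic pools it was 0.0024 with array weights and -0.109 to 0.035 without 1 sample, and between NTD embryos and control pools -0.085 to 0.031 without 1 sample. Lmx1a between diabetic and control pools was 0.091 without control pools 3 and 4. The second Msx3 probe between NTD embryos and control pools was -0.024 with array weights, -0.011 without control pools 3 and 4 and -0.087 to 0.167 without 1 sample. Between NTD embryos and diabetic pools, without 1 sample, the second Msx3 probe was -0.247 to 0.0078 and the third -0.367 to 0.031. The cause was not tested.

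Samples of the same replicate number deviated together with correlations of -0.25 to 0.07, 0.0028 to 0.26 and -0.19 to 0.28 in the 3 comparisons. The own number matched best for NTD embryos 3 and 4 against control pools and for NTD embryo 2 against diabetic pools. No clear pairing was seen, but 4 samples per group cannot exclude it. With the number as a replicate block the first Msx3 probe kept its value of 0.58 (limma adjusted p = 0.0168), and calls over all probes between diabetic and control pools numbered 96 in place of 222. Those calls were 132 from the authors' value table, 40 with all 12 arrays, 52 without control pools 3 and 4 and 100 to 281 without 1 sample, with 100 to 133 when that was diabetic pool 1 or 3 or control pool 2, 3 or 4. Between NTD embryos and control pools they numbered 24 with all 12 arrays, 54 with array weights, 1 from the value table, without a detection filter or with the block, and 0 without control pools 3 and 4, in place of 5. Without NTD embryo 1 or 4 they were 62 and 61, and without any other sample 1. In alternatives chosen after seeing the data, the calls between diabetic and control pools for other genes were recomputed under the same 19 settings. Neurog2 stayed called in 12, Hoxb4 in 9, Rbfox3 in 7 and Meox1 in 6, and no difference changed sign. Each lost its call with all 12 arrays, with the replicate block (limma adjusted p = 0.0929, 0.121, 0.0805 and 0.160 in that order), without control pools 3 and 4 and on leaving out some single samples, control pools 3 and 4 among them. No slide was given in the files, so that alternative was not run. Msx2, Atoh1 and the dim probes are limited by signal near background.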
